A study of Homo sapiens with 8 samples.

Results

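Cytosolic heat shock chaperones were followed across 8 RNA-seq libraries of Kyse510 cells, an established human line of esophageal squamous cell carcinoma (ESCC). The 10 genes include HSPA8, HSPA1A, HSPA1B and HSPA1L of the HSP70 family and the HSP40 cochaperones DNAJB1 and DNAJA1. The others are the exchange factors HSPH1 and BAG3, the inducible cytosolic HSP90 gene HSP90AA1 and the small heat shock protein HSPB1. They were chosen by gene symbol, and all 10 are among the 26360 genes that both deposited tables list, out of 31582 genes in the inhibitor table and 28942 in the knockdown table. Levels are FPKM, which divides the fragments of a gene by its length and by the depth of the library. The length behind the HSPA8 values, estimated at 4849 bases, exceeds its longest transcript (2306 bases). Levels of different genes within a library thus depend on the lengths used, while changes of a gene between libraries do not. Both tables were normalized separately, so that levels set across them carry that difference.

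HSP70 proteins bind exposed hydrophobic stretches of unfolded proteins in a cycle of ATP binding and hydrolysis, which HSP40 proteins start and nucleotide exchange factors end. HSP90 takes over many of these clients, including kinases and hormone receptors, and small heat shock proteins hold aggregation-prone proteins until they can be refolded. Heat shock factor HSF1 induces most of these genes during proteotoxic stress, and tumor cells often carry them at high levels.

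The study asked how blocking LSD1 (KDM1A), a histone demethylase, and G9a (EHMT2), which methylates H3K9, changes transcription in ESCC cells. In the pharmacological arm, Kyse510 cells were given DMSO vehicle, 7 µM SP2509 (an LSD1 inhibitor), 7 µM UNC0642 (a G9a inhibitor), or both inhibitors, for 2 days. The dose within the combination is not given separately. In the genetic arm, Kyse510 cells with a Dox-inducible hairpin against LSD1 (shLSD1) or G9a (shG9a) were selected with puromycin for 14 days, so that all 4 knockdown libraries come from selected, vector-bearing cells. Dox was then given for 2 days or withheld, and the control of each Dox library is its own line left without Dox. Whether a line is 1 clone or a pool is not stated, and no Dox-treated library of a non-targeting hairpin was analysed here, so that Dox itself and the silencing cannot be told apart. A library with both genes silenced was also not analysed here.

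Each condition is 1 library, so nothing below was checked against replicates and no p-value is given. Estimated library totals ran from 15662035 to 17889466 reads. KDM1A was at 26.0 FPKM without and 6.29 FPKM with Dox in the shLSD1 line, and EHMT2 was at 7.85 FPKM without and 4.76 FPKM with Dox in the shG9a line. Of 8 squamous epithelial markers, 6 were at 1 FPKM or more in all 8 libraries, with a summed level of 732 to 4932 FPKM. Of 8 markers of leukocytes, fibroblasts, endothelium and hepatocytes, CD3E and ALB are listed in the knockdown table only and the other 6 in both. In the libraries that list them, 5 of the 8, with CD3E and ALB among them, stayed under 1 FPKM and none was at 0 in every one, and the summed level of the listed markers was 6.59 to 19.1 FPKM. COL1A1 (2.92 to 5.36 FPKM) and CDH5 (3.28 to 14.0 FPKM) were above 1 FPKM in all 8 libraries. The squamous markers differed between conditions, with 6 of 7 that passed up and 0 down with SP2509, 4 and 2 of 7 with UNC0642, 4 and 3 of 7 in the combination, 1 and 2 of 6 in shLSD1 and 5 and 2 of 8 in shG9a, by the 1.3-fold rule explained with the calls. KRT17 changed most with SP2509 (324 to 3716 FPKM) and in both lines (1738 to 265 FPKM in shLSD1 and 1596 to 158 FPKM in shG9a). Of the other markers, 2 of 3 were up with SP2509, 0 of 2 with UNC0642, 2 of 2 in the combination and 1 of 2 in shLSD1, and 1 of 2 was down in shG9a. Their part in the chaperone values was not tested.

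A gene was called up or down where (FPKM + 1) differed at least 1.3-fold between the treated library and its control and at least 1 of the pair reached 1 FPKM. Log2 fold changes below are on this scale, which understates changes of low genes. The counting interval printed beside a log2 fold change is the exact 95% interval of the ratio of the reads estimated from the FPKM values, without the added 1. It covers counting error only and says nothing on the spread between cultures. In bulk RNA, more cells with a transcript and more transcript per cell cannot be told apart.

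Promoters of these genes are the textbook sites of HSF1, which binds inverted repeats of the unit GAA. The letters GAANNTTC and TTCNNGAA, each of which reads the same on both strands, were searched in the 250 bases before 13 transcription starts that RefSeq (GRCh38.p14) gives for the 10 genes. At least 1 match was found for 8 genes, at 8 of the 13 starts, beside 11.6% of the 35116 promoters in the same table (5.78% for GAANNTTC and 6.62% for TTCNNGAA). A run of 3 units, in which either form goes on with NN and 1 more unit in the alternate direction (GAA after TTC or TTC after GAA) and so contains both shorter forms, was found for HSPA8 and HSP90AA1, beside 0.441% of all promoters. For HSPH1 and BAG3 these letters are not in the window. Whether these letters go with the changes of the members was not tested. HSPH1 and BAG3, without a match, and DNAJA1, with 1, were called up in the same 4 comparisons as HSPA8. DNAJB1, with 2 matches, was called down in both lines. A match is a description of the letters, not of binding. In the matched stretches, capitals mark the match and the letters read 5′ to 3′ on the gene's strand.
HSPA8, far match (chr11:123062354-123062366, minus strand): GAAAGTTCCAGAA
HSPA8, near match (chr11:123062179-123062191, minus strand): TTCTGGAAGGTTC
HSPA1A (chr6:31815412-31815469, plus strand): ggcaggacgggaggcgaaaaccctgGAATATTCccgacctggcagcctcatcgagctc
HSPA1B (chr6:31827608-31827665, plus strand): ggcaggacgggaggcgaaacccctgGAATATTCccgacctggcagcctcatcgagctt
DNAJB1 (chr19:14518412-14518499, minus strand): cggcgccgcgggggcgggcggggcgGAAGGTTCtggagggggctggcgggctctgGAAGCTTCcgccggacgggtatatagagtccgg
DNAJA1 (chr9:33025050-33025107, plus strand): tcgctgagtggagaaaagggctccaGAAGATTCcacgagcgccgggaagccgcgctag
HSP90AA1 (chr14:102087080-102087157, minus strand): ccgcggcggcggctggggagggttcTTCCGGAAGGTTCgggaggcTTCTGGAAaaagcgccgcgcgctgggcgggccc
HSPB1 (chr7:76302466-76302523, plus strand): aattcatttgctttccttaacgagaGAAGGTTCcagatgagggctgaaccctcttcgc
Between the nearest match and the start lay 42 bases for HSPA8, 98 for HSPA1A, 97 for HSPA1B, 39 for DNAJB1, 190 for DNAJA1, 60 for HSP90AA1 and 174 for HSPB1. Both HSPA8 matches fall in an exon of another transcript of the gene in GENCODE release 44. HSPA1L starts on the opposite strand beside HSPA1A, and its only match is the HSPA1A stretch read from the other side, 153 bases before its own start. DNAJB1 has 3 RefSeq starts and HSP90AA1 has 2, and in each gene only the start shown holds a match.

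HSPA8 (ENSG00000109971, chr11:123057489-123063230, minus strand) encodes HSC70, the HSP70 protein that most cells make without stress. It was at 99.4 FPKM with vehicle, 66.8 after SP2509, 253 after UNC0642 and 262 in the combination. Without and with Dox it was at 63.2 and 128 FPKM in the shLSD1 line, and at 66.6 and 279 FPKM in the shG9a line. The 3 libraries in which G9a was inhibited or silenced held the highest levels of all 8, with shLSD1 with Dox next. The log2 fold change was 1.34 with UNC0642 (counting interval 1.31 to 1.39), 1.39 with the combination (1.36 to 1.44), 1.0 in the shLSD1 line (0.97 to 1.06) and 2.05 in the shG9a line (2.02 to 2.11). SP2509 alone went the other way, at -0.56 (-0.62 to -0.52). HSPA8 has many processed pseudogenes, of which 9 are listed, and their summed level was 0.0909% to 1.45% of that of HSPA8 in each library.

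HSPA1A (ENSG00000204389, chr6:31815464-31817946, plus strand) and HSPA1B (ENSG00000204388, chr6:31827735-31830255, plus strand) encode the stress-inducible HSP70. Of all 150-base windows in the longest HSPA1A transcript, 69.6% occur unchanged in HSPA1B, so that the split of reads between both genes is uncertain, and their sum is given as well. No window of the other 8 members was found in another gene. HSPA1A was at 7.35 FPKM with vehicle, 8.89 after SP2509, 24.9 after UNC0642 and 50.9 in the combination. HSPA1B followed the same order, at 15.3, 16.6, 43.9 and 78.9 FPKM. For the inhibitors the pair summed to 22.6 FPKM with vehicle, 25.5 after SP2509, 68.8 after UNC0642 and 130 in the combination. The log2 fold change in the combination was 2.63 for HSPA1A (counting interval 2.61 to 2.97) and 2.30 for HSPA1B (2.24 to 2.50), the largest changes of any member in any comparison on this scale. With a pseudocount of 0.01, HSPA1L in the combination came to 2.67, between HSPA1A (2.79) and HSPA1B (2.37). With UNC0642 they were 1.63 (1.57 to 1.95) and 1.47 (1.39 to 1.66), and with SP2509 the values of 0.24 and 0.12 stayed under the fold required.

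In the knockdown lines the changes of the inducible pair were smaller than that of HSPA8 or opposite to it. HSPA1A was at 32.8 FPKM without and 18.2 with Dox in the shLSD1 line, and at 32.0 and 42.3 FPKM in the shG9a line. HSPA1B was at 29.4 and 26.7 FPKM in the shLSD1 line, and at 32.1 and 48.0 FPKM in the shG9a line. HSPA1A was therefore called down in the shLSD1 line (log2 fold change -0.81, counting interval -0.97 to -0.72) and up in the shG9a line (0.39, 0.30 to 0.51), where the value lay just past the fold required. HSPA1B was not called in the shLSD1 line (-0.13) and was called up in the shG9a line (0.57). Summed over the pair, the log2 fold change was -0.46 in the shLSD1 line and 0.49 in the shG9a line. The pair stood at 98.5% and 96.2% of the HSPA8 level in the uninduced lines and at 35.2% and 32.3% after Dox, in shLSD1 and shG9a respectively. In the inhibitor arm the same share was 22.8% with vehicle, 38.2% after SP2509, 27.2% after UNC0642 and 49.5% in the combination. All these shares rest on lengths of 4849 bases for HSPA8 (longest transcript 2306) and 2483 for HSPA1A (longest transcript 2400). A shorter HSPA8 length would lower every share, but not change their direction between libraries. The balance between both kinds of HSP70 thus moved toward HSPA8 in the Dox libraries and toward the inducible pair with SP2509 and the combination.

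HSPA1L (ENSG00000204390, chr6:31809619-31815065, minus strand), an HSP70 gene known mainly from the testis, was close to the limit of detection. Its level was 0.226 FPKM with vehicle, 0 after SP2509, 0.593 after UNC0642 and 1.49 in the combination. Without and with Dox it was 0.288 and 0.539 FPKM in the shLSD1 line, and 0.166 and 0.885 FPKM in the shG9a line. These values rest on 0 to 64 reads, with 9 reads for vehicle and 64 for the combination. HSPA1L reached 1 FPKM only in the combination, and entered that comparison only through the library in which it was high (log2 fold change 1.02, counting interval 1.71 to 3.91 without the added 1). After SP2509 it had 0 reads, which taken as up to 3 reads allow 0.0662 FPKM, and the counting interval of its ratio to vehicle reached up to 0.446. The strand setting of the counting is not given, and HSPA1L lies next to HSPA1A on the other strand.

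DNAJA1 (ENSG00000086061, chr9:33025211-33039907, plus strand) encodes an HSP40 that partners HSC70 in folding and import. It was at 37.3 FPKM with vehicle, 23.5 after SP2509, 77.1 after UNC0642 and 160 in the combination. In the shLSD1 line it was at 22.6 FPKM without and 57.2 with Dox, and in the shG9a line at 26.1 and 91.5 FPKM. Its calls were the same as those of HSPA8, with log2 fold changes of -0.65 after SP2509 (counting interval -0.78 to -0.56), 1.03 after UNC0642 (0.96 to 1.13), 2.07 in the combination (2.02 to 2.18), 1.3 in shLSD1 (1.24 to 1.44) and 1.77 in shG9a (1.71 to 1.90).

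DNAJB1 (ENSG00000132002, chr19:14514770-14529770, minus strand) encodes HSP40 proper, the stress-inducible partner of HSP70, which takes part in disaggregation and in the feedback on HSF1. It was at 30.6 FPKM with vehicle, 47.5 after SP2509, 25 after UNC0642 and 63.0 in the combination. In the shLSD1 line it was at 61.3 FPKM without and 36.7 with Dox, and in the shG9a line at 57.8 and 42.8 FPKM. Both Dox libraries were thus lower than their controls, with log2 fold changes of -0.72 (counting interval -0.81 to -0.67) and -0.43 (-0.51 to -0.36). DNAJB1 was called up with SP2509 (0.62, 0.55 to 0.72) and with the combination (1.02, 0.96 to 1.13), and was not called with UNC0642 (-0.28). It was the only member called down in the shG9a line.

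The level of DNAJB1 relative to DNAJA1 differed widely as a result. DNAJB1 was 2.71 and 2.21 times DNAJA1 in the uninduced shLSD1 and shG9a lines, and 0.642 and 0.468 times DNAJA1 after Dox. The ratio was 0.818 with vehicle, 2.02 after SP2509, 0.324 after UNC0642 and 0.395 in the combination. By FPKM, DNAJB1 was the more abundant HSP40 in the SP2509 library and both uninduced libraries, and DNAJA1 in the other 5.

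**Figure D1:**
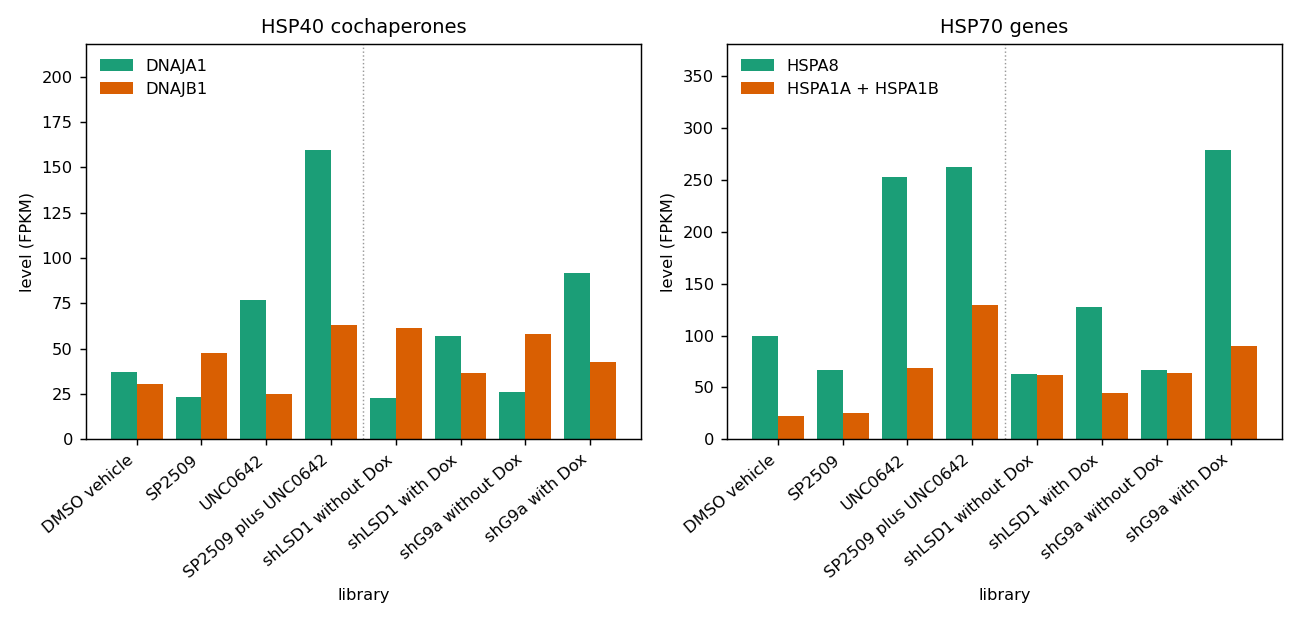
Levels in FPKM (linear axis from 0) of DNAJA1 and DNAJB1 (left) and of HSPA8 and the sum of HSPA1A and HSPA1B (right), with 1 bar per library and no error bar because each condition is 1 library; the dotted line separates the inhibitor from the knockdown table. DNAJB1 stands above DNAJA1 with SP2509 and in both uninduced lines, and HSPA8 reaches 253, 262 and 279 FPKM with UNC0642, the combination and shG9a with Dox.

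HSPH1 (ENSG00000120694, chr13:31134974-31162388, minus strand) encodes HSP110, which releases nucleotide from HSP70 and helps it to dissolve aggregates. It was at 13.1 FPKM with vehicle, 9.81 after SP2509, 26.3 after UNC0642 and 35.8 in the combination. Dox took it from 4.67 to 7.20 FPKM in shLSD1 cells and from 5.21 to 16.4 FPKM in shG9a cells. It was called in all 5 comparisons, in the same directions as HSPA8 and DNAJA1. The log2 fold change was -0.38 after SP2509, at the edge of the fold required (counting interval -0.51 to -0.31), 0.96 after UNC0642 (0.93 to 1.09), 1.39 in the combination (1.38 to 1.53), 0.53 in shLSD1 (0.49 to 0.77) and 1.49 in shG9a (1.53 to 1.78 without the added 1).

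BAG3 (ENSG00000151929, chr10:119651370-119677819, plus strand) encodes a cochaperone that links HSP70 to small heat shock proteins and to selective autophagy. It was at 22.7 FPKM with vehicle, 19.1 after SP2509, 38.0 after UNC0642 and 52.7 in the combination. The uninduced lines were at 18.4 FPKM (shLSD1) and 17.0 FPKM (shG9a), and Dox libraries at 24.3 and 24.8 FPKM. BAG3 was called up in 4 comparisons, with log2 fold changes of 0.72 after UNC0642, 1.18 in the combination, 0.38 in shLSD1 and 0.52 in shG9a, and was not called with SP2509 (-0.24). The shLSD1 value lay at the edge of the fold required (counting interval 0.28 to 0.53).

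HSP90AA1 (ENSG00000080824, chr14:102080738-102139699, minus strand) encodes HSP90α, the inducible cytosolic HSP90. It was at 291 FPKM with vehicle, 209 after SP2509, 461 after UNC0642 and 372 in the combination. Among the knockdown libraries, shLSD1 was at 79.9 FPKM without and 66.6 with Dox, and shG9a at 83.4 and 226 FPKM. HSP90AA1 was the most abundant member in all 4 inhibitor libraries, and among the knockdown libraries shG9a with Dox stood far above the other 3. It was called up with UNC0642 (log2 fold change 0.66, counting interval 0.64 to 0.69) and in the shG9a line (1.43, 1.40 to 1.48) and down with SP2509 (-0.48, -0.51 to -0.45). The combination (0.35) and shLSD1 (-0.26) were not called, and in the combination HSP90AA1 was at 0.807 times its level with UNC0642 alone. HSP90AB1, the other cytosolic HSP90 gene and not a member, stood above HSP90AA1 in all 8 libraries. It was at 775 FPKM with vehicle, 562 and 546 FPKM in the uninduced shLSD1 and shG9a lines, and 894 FPKM in shG9a with Dox.

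HSPB1 (ENSG00000106211, chr7:76302544-76304295, plus strand) encodes HSP27, an ATP-independent holdase of epithelial and many other cells. It was at 107 FPKM with vehicle, 184 after SP2509, 99.6 after UNC0642 and 45.9 in the combination. The shLSD1 line had 274 FPKM without and 299 with Dox, and the shG9a line 267 and 401 FPKM. HSPB1 was the only member called down in the combination (log2 fold change -1.20, counting interval -1.32 to -1.13) and, with DNAJB1, 1 of the 2 called up with SP2509 (0.77, 0.71 to 0.84). It was called up in the shG9a line (0.59, 0.55 to 0.63) and was not called with UNC0642 (-0.10) or in the shLSD1 line (0.13). No other member was lowest in the combination among the 4 inhibitor libraries.

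**Figure D2:**
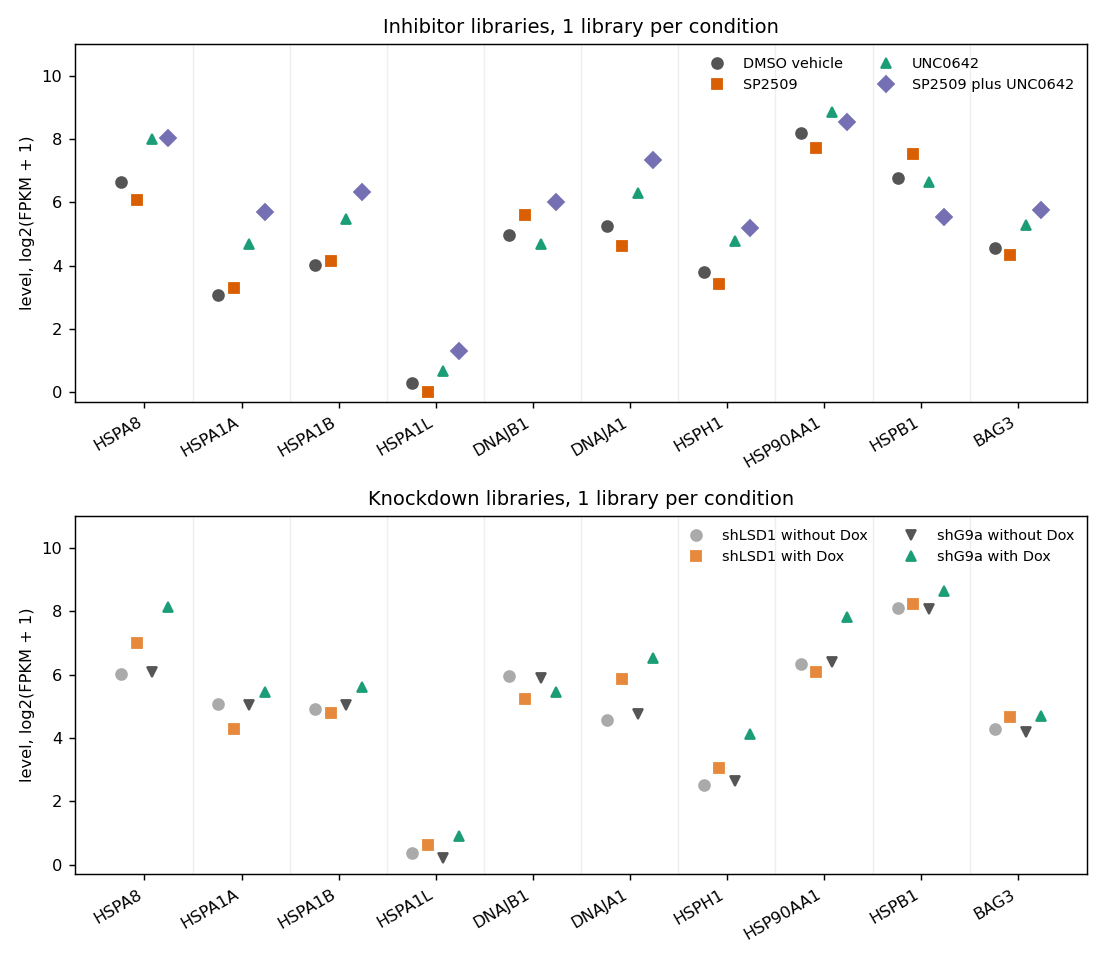
Level of each of the 10 genes as log2(FPKM + 1) in the 4 inhibitor libraries (top) and the 4 knockdown libraries (bottom), with 1 point per library and gene. Purple diamonds (the combination) are the highest of the 4 inhibitor points for 8 genes and the lowest for HSPB1; the uninduced points of both lines lie close together for every gene.

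With UNC0642, most of the cytosolic chaperones were at higher levels than with vehicle. HSPA1A, HSPA1B, HSPA8, DNAJA1, HSPH1, BAG3 and HSP90AA1 were called up, by 1.58-fold for HSP90AA1 to 3.10-fold for HSPA1A, while DNAJB1 and HSPB1 were not called. Thus 7 of the 9 members that passed the filter were called up and 0 were called down, where 18.2% of the 13244 genes tested were called up and 16.9% down. Over these 9 the median log2 fold change was 0.96, and that of all genes tested was -0.01. At a fold of at least 2, the number called up was 4.

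Both inhibitors together gave the highest level of the 4 inhibitor libraries for 8 members. HSPA1A was 6.21-fold, HSPA1B 4.91-fold and DNAJA1 4.19-fold above vehicle. HSPA8 and HSPH1 were each 2.62-fold, BAG3 2.27-fold and DNAJB1 2.03-fold above it, while HSPB1 was 2.31-fold below it. HSPA1L went from 9 to 64 reads, a ratio with a counting interval of 3.27 to 15.1. In all, 8 of 10 members were called up and 1 down, beside 31.4% of 13907 genes up and 31.7% down, and the median log2 fold change was 1.28 against -0.02 for all genes tested. The count includes HSPA1L, which passed the filter only in the treated library. Relative to UNC0642 alone, the combination was at 2.04 times the level for HSPA1A, 1.80 for HSPA1B, 2.07 for DNAJA1 and 2.52 for DNAJB1, but at 1.04 times the level for HSPA8.

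SP2509 alone was the only treatment with more members called down than up. HSPA8, DNAJA1, HSPH1 and HSP90AA1 were called down, by 1.3-fold for HSPH1 to 1.56-fold for DNAJA1, and DNAJB1 (1.54-fold) and HSPB1 (1.71-fold) were called up. HSPA1A, HSPA1B and BAG3 were not called. The 4 of 9 members down and 2 up compare with 39.9% of 13342 genes down and 21% up, shares near those of the members, and the median was -0.24 against -0.21 for all genes. With a trimmed mean scaling, which takes a shift of -0.28 off all log2 values, 4 members were up (HSPA1A and HSPA1B joined) and 0 down, and the share of all calls that were up went from 34.5% to 53.6%. With centring on the median ratio, a shift of -0.09, 2 members were up and 3 down. The 3 inhibitor comparisons share the vehicle library, so that an unusual value there enters all of them.

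In the shG9a line, Dox was accompanied by higher levels of every member that passed the filter except DNAJB1. HSPA8 (4.14-fold), DNAJA1 (3.41-fold), HSPH1 (2.80-fold) and HSP90AA1 (2.69-fold) changed most, and HSPB1, HSPA1B, BAG3 and HSPA1A followed at 1.31-fold to 1.5-fold. Thus 8 of 9 were called up and 1 down, where 32.9% of 13080 genes were called up and 17.6% down. Over the members the median log2 fold change was 0.59, and that of all genes was 0.18. HSPA1L stayed under 1 FPKM, with 7 reads without and 39 with Dox. With a trimmed mean scaling (a shift of 0.21) the 4 genes named first remained up and the number up was 4, because HSPA1A, HSPA1B, HSPB1 and BAG3 came to 0.17 to 0.36. The share of all calls that were up was 65.2%, and 43.7% after that scaling.

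In the shLSD1 line, Dox was accompanied by a split among the chaperones. DNAJA1 (2.47-fold), HSPA8 (2.00-fold), HSPH1 (1.45-fold) and BAG3 (1.31-fold) were called up, HSPA1A (1.76-fold) and DNAJB1 (1.65-fold) were called down, and HSPA1B, HSP90AA1 and HSPB1 were not called. The background was 24.8% of 12970 genes up and 12.3% down, beside 4 of 9 members up and 2 down, and the median was 0.13 for both the members and all genes. A trimmed mean scaling (a shift of 0.13) left 3 up and 3 down, with BAG3 at 0.25 and HSP90AA1 at -0.40, and took the share of all calls that were up from 66.8% to 49.2%.

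**Figure D3:**
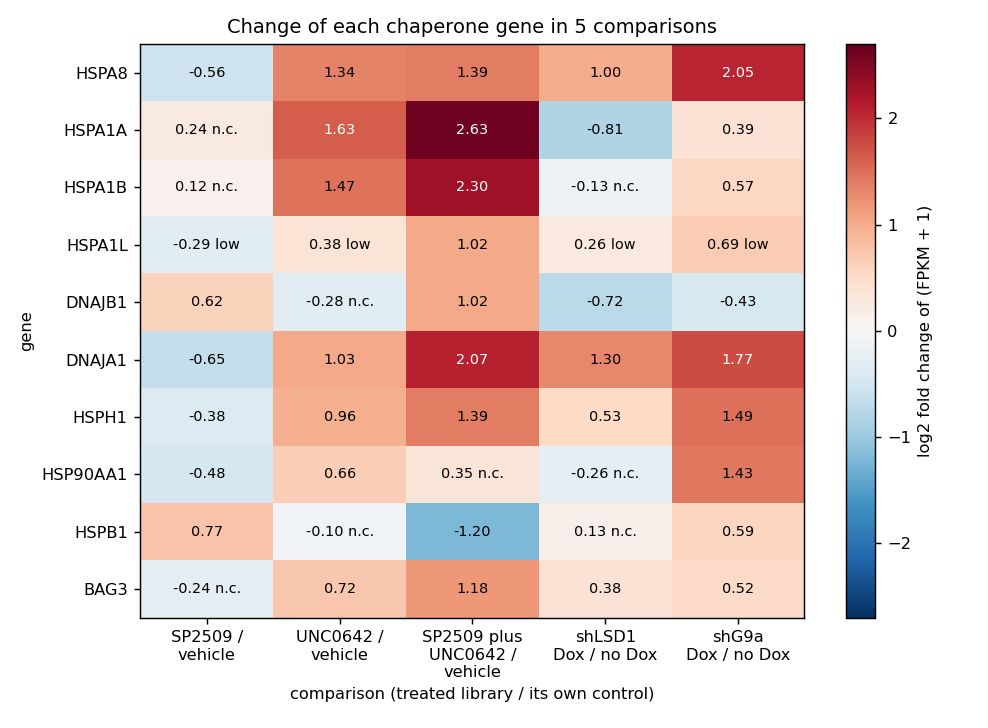
Log2 fold change of (FPKM + 1) for each gene (rows) in each comparison (columns), with red for higher and blue for lower in the treated library; "n.c." marks values under the 1.3-fold limit and "low" those with neither library at 1 FPKM. The UNC0642, combination and shG9a columns are mostly red, with DNAJB1 (shG9a) and HSPB1 (combination) as the called exceptions, and the SP2509 column reads -0.56 for HSPA8 and 0.77 for HSPB1.

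The silencing and the inhibition of either enzyme use different controls and can be set side by side. For G9a, the 7 members called up with UNC0642 were also called up in the shG9a line, and 0 were called in opposite directions. With the trimmed mean scaling 4 members were up in both, since HSPA1A, HSPA1B and BAG3 lost the shG9a call, and with centring on the median ratio 5 were. Of the 11906 genes that passed the filter in both, 4.79% were up in both, 4.01% were down in both and 10.1% were called in opposite directions. For LSD1, 0 members were called in the same direction with SP2509 and in the shLSD1 line, and 4 were called in opposite directions. HSPA8, DNAJA1 and HSPH1 were lower with SP2509 and higher after Dox, and DNAJB1 was the reverse. With the trimmed mean scaling 2 were called in opposite directions, DNAJB1 and HSPA1A, because HSPA8, DNAJA1 and HSPH1 were no longer called down with SP2509 (-0.27, -0.36 and -0.11) and HSPA1A was called up (0.51). The number was 3 with centring on the median ratio and with protein-coding genes only, and 4 against the mean of both uninduced libraries. At a fold of at least 2, 0 members were called in opposite directions for LSD1. At that fold, 2 members were up in both for G9a. Among 11769 genes, 2.53% were up in both, 2.07% were down in both and 20.4% were called in opposite directions. The sizes of the G9a changes differed between both arms for single genes, since HSPA1A was 3.10-fold higher with UNC0642 and 1.31-fold higher in the shG9a line, and HSP90AA1 was 1.58-fold and 2.69-fold higher.

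The 3 unperturbed libraries give the only view of how far these genes vary without treatment. Between the uninduced shG9a and shLSD1 lines, 0 of the 10 members differed by 1.3-fold, where 3.04% of 12449 genes were higher and 4.51% lower by that much. The largest log2 difference was 0.20, for DNAJA1 (22.6 and 26.1 FPKM). Vehicle differed more from these lines. HSP90AA1 was 3.54-fold, HSPH1 2.37-fold, HSPA8 1.52-fold and DNAJA1 1.51-fold higher with vehicle than in the mean of the uninduced lines, and HSPA1A was 4.0-fold, HSPB1 2.51-fold, HSPA1B 1.95-fold and DNAJB1 1.92-fold lower. That makes 4 members higher and 4 lower, beside 36.2% and 23.4% of 13065 genes. Both arms were normalized in separate tables and differ in vector, selection and vehicle, which cannot be told apart here.

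The order of the levels in FPKM differed between both arms. It depends on the length used for each gene. That length exceeded the longest transcript for HSPA8 (4849 against 2306 bases), HSPH1 (8390 against 5244) and HSP90AA1 (5248 against 3510). For DNAJB1 it was shorter (3672 against 4273). The places of these genes, and the shares and sums below, are therefore uncertain. With vehicle the order ran HSP90AA1, HSPB1, HSPA8, DNAJA1, DNAJB1, BAG3, HSPA1B, HSPH1, HSPA1A and HSPA1L. HSP90AA1 made up 46.7% of the summed FPKM of the 10 genes with vehicle and 33.1% with the combination, and in the uninduced lines HSPB1 led, with 46.7% in shLSD1 and 45.4% in shG9a, while HSP90AA1 held 13.6% and 14.2%. With the combination, HSPB1 made up 4.09%. The summed level of the 10 genes was 624 FPKM with vehicle, 585 after SP2509, 1049 after UNC0642 and 1122 in the combination, and Dox took it from 586 to 664 FPKM in shLSD1 cells and from 587 to 1173 FPKM in shG9a cells. The sum was thus highest in the 3 libraries with G9a inhibited or silenced. With 1 library per condition, no spread is available to say which neighbours in these orders differ.

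The other members of the heat shock network were counted from lists by function. Over all genes tested, the shares called up and down were 21% and 39.9% with SP2509, 18.2% and 16.9% with UNC0642, 31.4% and 31.7% in the combination, 24.8% and 12.3% in shLSD1 and 32.9% and 17.6% in shG9a, and each list is to be read against them. Among HSP90 and its cochaperones, 10 of 14 genes that passed were called up and 0 down in the shG9a line, 3 and 0 of 14 in the shLSD1 line, 7 and 0 of 15 in the combination, 2 and 1 of 15 with UNC0642 and 1 and 6 of 15 with SP2509. The 6 down with SP2509, the 3 up in the shLSD1 line and the 2 up with UNC0642 are shares near or under those of all genes. AHSA1, which stimulates the HSP90 ATPase, had the largest change of the list in 3 comparisons, from 46.0 to 103 FPKM in the combination, 26.4 to 45.1 in the shLSD1 line and 29.0 to 71.7 in the shG9a line. FKBP4, an HSP90-binding immunophilin, led with UNC0642 (19.9 to 30.8 FPKM), and STIP1, which bridges HSP70 and HSP90, with SP2509 (60.6 to 30.7 FPKM). The medians were 0.53, 0.08, 0.31, 0.23 and -0.23 in the same order.

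Among 7 other cytosolic HSP70 and HSP110 genes, 2 of 5 that passed were up and 0 down with UNC0642, 3 and 1 of 6 in the combination, 1 and 2 of 5 with SP2509, 1 and 2 of 5 in the shLSD1 line and 3 and 2 of 6 in the shG9a line. HSPA2, an HSP70 gene best known from spermatogenesis, had the largest change in all 3 inhibitor comparisons, from 2.52 FPKM with vehicle to 7.02 after SP2509, 8.58 after UNC0642 and 33.8 in the combination. HSPA6, a strictly stress-inducible HSP70 gene, had the largest change in both lines, at 10.8 FPKM without and 1.01 with Dox in shLSD1 and at 8.13 and 0.463 FPKM in shG9a. It was at 0.323 FPKM with vehicle and at 2.72 FPKM with the combination. The medians of the list were 0.24, 0.45, -0.35, -0.24 and 0.36 in the order given. HSPA6 thus went down in the same shG9a pair in which HSPA8 went up 4.14-fold.

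Other cytosolic HSP40 genes were called in both directions in all 5 comparisons, each at a share near or under that of all genes. Of 14 that passed, 1 was up and 2 were down with UNC0642, 3 and 4 in the combination, 1 and 6 with SP2509, 1 and 1 in the shLSD1 line and 4 and 1 in the shG9a line, with medians of -0.05, -0.13, -0.35, 0.17 and 0.17. The largest changes were those of DNAJC6 with UNC0642 (6.58 to 2.97 FPKM), DNAJB2 in the combination (4.41 to 30.4 FPKM) and in shLSD1 (11 to 7.70 FPKM), DNAJC5 with SP2509 (29.2 to 10.3 FPKM) and DNAJB6 in shG9a (8.98 to 4.58 FPKM). Of the 8 HSP70 exchange factors and cofactors, 0 were called with UNC0642, 1 was up and 1 down in the combination, 1 and 3 with SP2509, 2 and 0 in the shLSD1 line and 3 and 0 in the shG9a line, with medians of 0.03, 0.01, -0.26, 0.12 and 0.25. Those counts are likewise shares near or under those of all genes. BAG2, an inhibitor of the ubiquitin ligase CHIP, changed most with SP2509 (7.56 to 3.29 FPKM) and in shLSD1 (3.06 to 4.8 FPKM). ST13, the HSP70-interacting protein, changed most in shG9a (91.3 to 152 FPKM), STUB1, which encodes CHIP, in the combination (8.77 to 5.91 FPKM), and BAG1, with no call, with UNC0642 (5.03 to 6.51 FPKM).

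Small heat shock proteins other than HSPB1 were mostly low. The genes that passed numbered 4 with SP2509, 2 with UNC0642, 2 in the combination, 2 in shLSD1 and 4 in shG9a, and 2, 1, 1, 1 and 3 of them were up, with 1 more down in shG9a. Their medians were 0.09, 0.54, 1.6, 0.70 and 0.45. HSPB8, a partner of BAG3, was at 4.17 FPKM with vehicle and at 35.6 FPKM with the combination, the condition in which HSPB1 was lowest. It changed most with UNC0642 (8.21 FPKM) and in the shLSD1 line (1.97 to 5.59 FPKM) as well, while CRYAB led with SP2509 (0.147 to 1.07 FPKM) and HSPB3 in shG9a (0.231 to 1.99 FPKM). Of 4 heat shock factors and regulators that passed, 1 was up with each inhibitor treatment and in shG9a, and 1 was down in shLSD1, with medians of 0.33 with SP2509, 0.11 with UNC0642, 0.26 in the combination, -0.03 in shG9a and -0.08 in shLSD1. The genes were HSF1 with SP2509 (12.0 to 17.6 FPKM), HSF4 with UNC0642 (1.36 to 2.32 FPKM), HSBP1, which binds HSF1, in the combination (11.8 to 16.7 FPKM) and in shG9a (10.3 to 16.5 FPKM), and HSF4 in shLSD1 (7.86 to 5.75 FPKM). HSF1 itself was at 11 FPKM with UNC0642 and went from 18.0 to 15.7 FPKM in the shG9a line, with no call in either.

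A list of 20 other genes induced through HSF1, many of which also stand in the lists above, held genes called in both directions in all 5 comparisons. With UNC0642, 6 of 17 were up and 3 down, in the combination 11 and 3 of 18, with SP2509 4 and 8 of 18, in the shLSD1 line 5 and 2 of 17 and in the shG9a line 10 and 4 of 19. The genes down with UNC0642 and in the shG9a line, and both counts with SP2509 and in the shLSD1 line, are shares near those of all genes. The medians were 0.26, 0.58, -0.33, 0.11 and 0.39. The largest changes were those of ZFAND2A with UNC0642 (5.82 to 1.94 FPKM), HSPB8 in the combination and HSPA6 in both lines.

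Chaperones of the same families in the endoplasmic reticulum (ER) and mitochondria were counted as a single list. Most of its genes were called down in the inhibitor comparisons and the shG9a line, and 5 of 11 in the shLSD1 line. Of 11 such genes, all of which passed, 0 were up and 8 down with UNC0642, 1 and 9 in the combination, 0 and 10 with SP2509, 2 and 5 in the shLSD1 line and 0 and 8 in the shG9a line, with medians of -0.84, -0.71, -1.03, -0.19 and -1.30. All genes tested were called down at 16.9%, 31.7%, 39.9%, 12.3% and 17.6% in that order. HSPA5 (BiP), the HSP70 of the ER, was at 1462 FPKM with vehicle and 251 with UNC0642, and Dox in the shG9a line took it from 1551 to 102 FPKM. In that line HSPA5 was 23.3 times HSPA8 without Dox and 0.366 times HSPA8 with it, ratios that depend on the lengths used for both genes. HSP90B1 (GRP94) and HYOU1 (the ER counterpart of HSPH1) had log2 fold changes of -0.84 and -1.35 with UNC0642 and of -2.43 and -2.79 in the shG9a line. HSPA9, the mitochondrial HSP70, was at 221 FPKM with vehicle, 108 after SP2509, and 146 in the other two inhibitor libraries. TRAP1, the mitochondrial HSP90, was called down with SP2509 (31.1 to 16 FPKM) and with the combination (11.1 FPKM). It was not called with UNC0642 (26.2 FPKM) or in either line. In shG9a, HSPA9 was called down (101 to 53.6 FPKM). The mitochondrial genes DNAJA3 (15.6 to 14.7 FPKM) and GRPEL1 (8.96 to 8.70 FPKM) were not called there. In shLSD1, HSPA9 was not called (89.8 to 86.1 FPKM) and DNAJA3 was called up (13.5 to 18.7 FPKM). The down calls of the list in both lines thus lay mostly with ER genes.

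**Figure D4:**
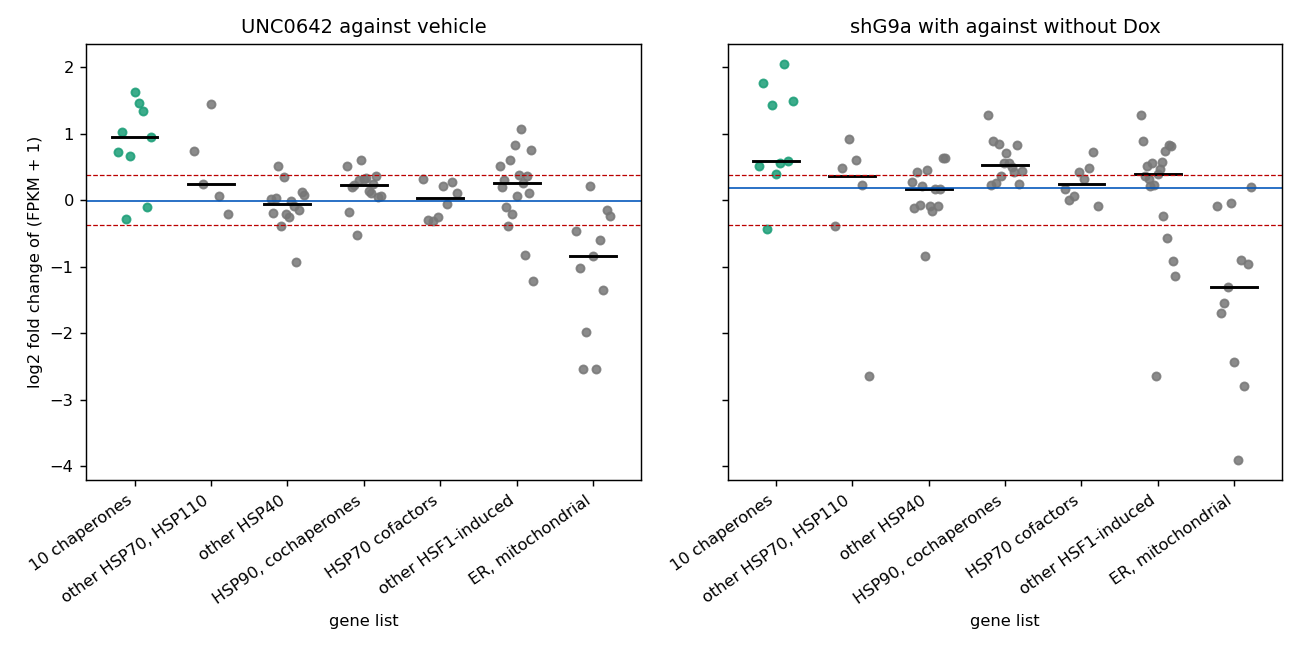
Log2 fold change of (FPKM + 1) for the genes of each list that passed the filter (1 point per gene, black bar at the list median), with UNC0642 (left) and in the shG9a line with Dox (right); dashed red lines mark 1.3-fold and the blue line the median of all genes tested. The cytosolic members have medians of 0.96 and 0.59, and the ER and mitochondrial counterparts have medians of -0.84 and -1.30.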

How the data were processed

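RNA-seq (paired-end, 150 bases) of 8 Kyse510 libraries, 1 per condition, was analysed. The authors removed low-quality and adapter-contaminated reads, mapped the rest to the genome (GRCh38.87) and deposited values in FPKM, in 2 separately normalized tables. The aligner, the counting tool and its strand setting are not given in the sources used here. Groups follow the sample labels. The gene set, the lists of related genes and the tests were chosen with earlier results of these data known. All 10 members are named, with the most changed gene of each other list in each comparison, ER and mitochondrial paralogs, and the genes nearest in profile. A result that this rule would name is not reported here.

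Log2 fold changes used a pseudocount of 1 FPKM, and a gene was called at a fold of at least 1.3 where 1 of the 2 libraries reached 1 FPKM, on whole tables. Reads were estimated from the steps of the FPKM values. Single-exon genes of known length (GENCODE release 44) gave each library's total. For each gene the smallest length at which all values are whole reads was taken, or the reference length where that was a small multiple of it. Genes with no such length, or one over 1.3 times the reference, were fitted in each table separately. A longer length can also give whole reads, so that the estimated reads can be too few. The intervals (exact Clopper-Pearson, 95%) depend on that choice. The reads amount to 99.6% to 99.8% of the totals of 15662035 to 17889466. A count of 0 was bounded with 3 reads. The procedure was tested on simulated data in which the true gene lengths were given as the reference, and the intervals were checked on the simulated reads. Lengths that differ from the reference, and intervals from estimated reads, were not tested in this way. Sequence sharing was read from GENCODE transcripts in windows of 150 bases, and promoters from RefSeq (GRCh38.p14).

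The alternatives were pseudocounts of 0.1 and 0.01, no filter, a minimum of 5 FPKM, a fold of 2 and protein-coding genes only. Others were centring on the median ratio of genes at 5 FPKM or more and a trimmed mean scaling. That scaling removed the unweighted mean log2 ratio of genes above 0 in both libraries, including those under 1 FPKM. It trimmed 30% of ratios and 5% of levels at each end. Another required a 2-sided exact binomial p under 0.05, which compares libraries, not conditions. The last were the mean of both uninduced libraries as control, and the sum of HSPA1A and HSPA1B. The comparisons of unperturbed libraries, of calls shared by inhibitor and knockdown (also under other scalings), and the motif search were added after the data were seen. Python 3.11.15, numpy 2.4.6, pandas 2.3.3, scipy 1.17.1 and matplotlib 3.10.9 were used.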

Additional observations from a re-analysis of the deposited data

Results flagged for a closer look

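HSPA1A went in opposite directions when Dox was added to each of the lines. Its log2 fold change was -0.81 in the shLSD1 line and 0.39 in the shG9a line, from uninduced levels of 32.8 and 32.0 FPKM. Each direction rests on 1 library against 1 library, and the difference was not tested. The shG9a value passes the 1.3-fold limit by little, and was under it with centring on the median ratio (0.25), with the trimmed mean scaling (0.17), with protein-coding genes only (0.25) and against the mean of both uninduced libraries (0.37). Its reads can be split with HSPA1B, and for the sum of the pair the values were -0.46 and 0.49.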

How the results depend on the processing

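No paired analysis was possible because each condition is 1 library and the labels give no replicate numbers. For the same reason no library could be left out. Of 94 counts of members called up or down under an alternative, 83 stayed within 1.5 times the main count and 11 did not. At a fold of at least 2, SP2509 had 0 members up and 0 down, UNC0642 4 up, shLSD1 2 up and 0 down, and shG9a 4 up and 0 down. With the trimmed mean scaling, SP2509 had 4 up and 0 down and shG9a 4 up. With protein-coding genes only, SP2509 had 2 down. Requiring an exact binomial p under 0.05 as well left every count of members called up or down as it was. The depth fixed that outcome, since every member but HSPA1L had at least 286 reads in each library, where a 1.3-fold difference passes. The unchanged counts therefore add nothing to the calls. Of 395 values of single members, 322 moved by less than the counting error, 73 moved by more, and 0 changed sign while called. The 322 include every value under no filter, a minimum of 5 FPKM and a fold of 2. Those settings change only the filter or the threshold, so that a log2 value could not move. Most of the 73 came with the scaling and protein-coding alternatives. Centring on the median ratio took a shift of -0.09 off SP2509, 0.11 off shLSD1 and 0.14 off shG9a, and the share of calls that were up became 41.3%, 50.7% and 50.03%.

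Counts over all genes moved beyond 1.5 times in 27 of 94 cases. At a fold of 2, genes up and down numbered 1101 and 1736 in place of 2807 and 5318 for SP2509, 634 and 413 in place of 2410 and 2242 for UNC0642, 1811 and 1331 in place of 4370 and 4413 for the combination, 436 and 424 in place of 3219 and 1599 for shLSD1, and 671 and 788 in place of 4305 and 2298 for shG9a. At a minimum of 5 FPKM, which tests fewer genes, they were 1624 and 2826, 1274 and 1117, 2557 and 2446, 1845 and 894, and 2459 and 1383 in that order. The trimmed mean scaling gave 4424 up for SP2509, 2109 up for shLSD1 and 2455 up for shG9a. Protein-coding genes only gave 3511 down for SP2509, 1404 down for UNC0642, 1883 up for shLSD1 and 2348 up for shG9a. Depth limits HSPA1L, with 0 to 64 reads, and no other member, since each of these had at least 286 reads in every library.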

Other observations

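Among 5925 protein-coding genes outside the members, the log2 fold changes of ASF1B in the 5 comparisons lay nearest to those of HSPA8, with a root mean square difference of 0.39. EIF4EBP2 (0.41), RRM2 (0.44), UHRF1 (0.49) and TUBB4B (0.51) came next. ASF1B, a histone chaperone, had values of -0.79 with SP2509, 0.54 with UNC0642, 1.47 with the combination, 1.19 in the shLSD1 line and 1.88 in the shG9a line, beside -0.56, 1.34, 1.39, 1.0 and 2.05 for HSPA8. The genes nearest to the median of the members were TUBB6 (0.18), NETO2 (0.20), DEGS1 (0.21), BAX (0.22) and SS18L1 (0.22). The inhibitor comparisons share the vehicle library, so these profiles are descriptions of 5 comparisons that are not independent.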
